A study of Mus musculus with 8 samples.

Results

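The 5585 loci described here are those loci of the deposited transcript assembly that are annotated and consist of a single exon, out of 35299 loci in all. A locus counted as annotated where at least 1 of its transcripts carries class code =, j or o, the codes of Cufflinks for a match to, a shared junction with or an overlap with a known transcript, and it was kept where each of its transcripts has 1 exon. The 8 loci of the mitochondrial genome (chrM) were left out. All transcripts of 5477 members have code =, and the other 108 members also hold code o. The remaining loci of the series are 20506 annotated loci of more than 1 exon and 9200 unannotated loci. No measured value entered the choice.

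RNA came from the border zone of 8 hearts, the muscle next to an infarct or its counterpart, and was selected for poly(A) and sequenced in read pairs. The groups were 4 C57BL/6J mice with myocardial infarction (MI), in which muscle dies when its blood supply is cut off, and 4 sham-operated C57BL/6J mice (Sham). All were 12 weeks old and were sampled 2 weeks after surgery. The study set out to profile non-coding RNA, and the question here is which long RNAs differ between the 2 kinds of heart. The titles of the Sham samples, unlike those of the MI samples, carry a remark on reanalysis, and another field gives Sham as the source of MI samples, so where the samples came from and what the infarct did cannot be told apart. In bulk tissue, fewer cells of a type and less RNA per cell cannot be told apart either.

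Most mammalian genes are split by introns, and genes without them fall into a few known classes. Olfactory receptors and many other G protein-coupled receptors have intronless coding regions. So do the replication-dependent histones, whose mRNAs end in a stem-loop in place of a poly(A) tail, the clustered beta protocadherins and some transcription factors that are switched on quickly, such as Jun. Others are retrogenes, copies made from the spliced mRNA of a parent gene, and a single-exon model can also be a piece of a longer spliced transcript.

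The files identify these loci by UCSC gene identifier and mm9 position. Gene symbols were taken from GENCODE release M21, which is on another build, by the distance of each locus to flanking introns of equal length in both annotations. Of the members 5222 could be placed between such introns and 1766 were named, while 393 lay on part of an exon of a GENCODE gene without matching it and 213 lay opposite one. When the loci were moved by 5000 or 100000 bases, 20 and 33 of them received a name, and 593 and 346 without a name came to lie on an exon. Moved loci were thus seldom named. Only loci without a name were counted as lying on an exon, and the 393 at the true place lie between the 2 counts after the moves. For a locus without a name, a position on an exon thus gives its place and not its identity. Among the 1766 names were 1634 protein-coding genes, 57 long non-coding RNAs, 56 pseudogenes, 17 short RNAs and 2 T cell receptor segments. In GENCODE 743 of the named genes have transcripts of 1 exon only and 1023 also have a spliced transcript.

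Sequence shows what kinds of element the class holds. Member uc007ams.1, which took the most reads, was placed by its left flank on GENCODE gene Gm10925, an unprocessed pseudogene on chromosome 1, and its letters are shown because they recur in the mitochondrial gene mt-Atp6. All 678 bases of the Gm10925 transcript equal those of mt-Atp6, whose transcript has 681, and the opening 120 bases shared by both, from the GENCODE transcripts, read as follows.
Gm10925 and mt-Atp6: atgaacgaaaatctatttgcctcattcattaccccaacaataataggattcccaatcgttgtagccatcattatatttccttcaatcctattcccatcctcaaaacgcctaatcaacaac
Member uc007qxn.1 has 23 bases, all within the hairpin of the microRNA gene Mir23b (RefSeq, GRCm38.p6). It is shown because it is the sole tested locus under 40 bases, and capitals mark the bases of the locus, positions 46 to 68 of the hairpin.
Mir23b hairpin: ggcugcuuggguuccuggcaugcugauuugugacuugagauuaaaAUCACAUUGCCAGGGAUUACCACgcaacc
The histone stem-loop was found in the GENCODE transcripts of part of the histone members. Its 16 bases are shown from 3 such transcripts, all of genes on chromosome 13. Their loci had the highest level among tested members in which it was found.
Hist1h4h: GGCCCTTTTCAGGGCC
Hist1h4i: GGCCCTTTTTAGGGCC
Hist1h2ac: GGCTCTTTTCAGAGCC

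Long members were detected more often than short ones. The members ran from 22 to 29698 bases with a median of 59, and 3233 of them (57.9%) were shorter than 100 bases, the length of a read. Over the 8 libraries 1201 members had at least 1 read and 4384 had none, and 478 reached a mean of 10 normalised reads, the minimum for a test. By comparison 14792 of 20506 annotated loci of more than 1 exon reached it, 72.1% against 8.56% of the members. Of the 233 members of at least 3000 bases 193 were tested, and of the 543 with 1000 to 2999 bases 233 were. Below that, 43 of 1476 loci with 200 to 999 bases, 5 of 100 with 100 to 199 bases, 3 of 1201 with 40 to 99 bases and 1 of 2032 under 40 bases were tested. The rise with length is not steady, since 29% of loci with 100 to 199 bases had a read, against 19.7% of those with 200 to 999 bases, a class in which 928 of the 1476 loci are olfactory receptor genes. The median length was 2616 bases among tested members and 51 bases among the others.

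The shortest class had features of its own. Of its 2032 loci 1440 (70.9%) had 26 to 33 bases, with 30 bases the most frequent length, and 1934 (95.2%) started within 2000 bases of another such locus on the same chromosome. They were spread over 22 chromosomes or unplaced sequences, with 241 on chromosome 2, 214 on chromosome 17 and 195 on chromosome 7. No library had a read for 1872 of them. All 8 libraries together gave the class 1224 reads, of which 49.2% fell in 3 loci. The deposited files do not say what these loci are, and the reads were 100 bases long and came from poly(A) RNA, so a locus without a read is not shown to be silent.

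**Figure D1:**
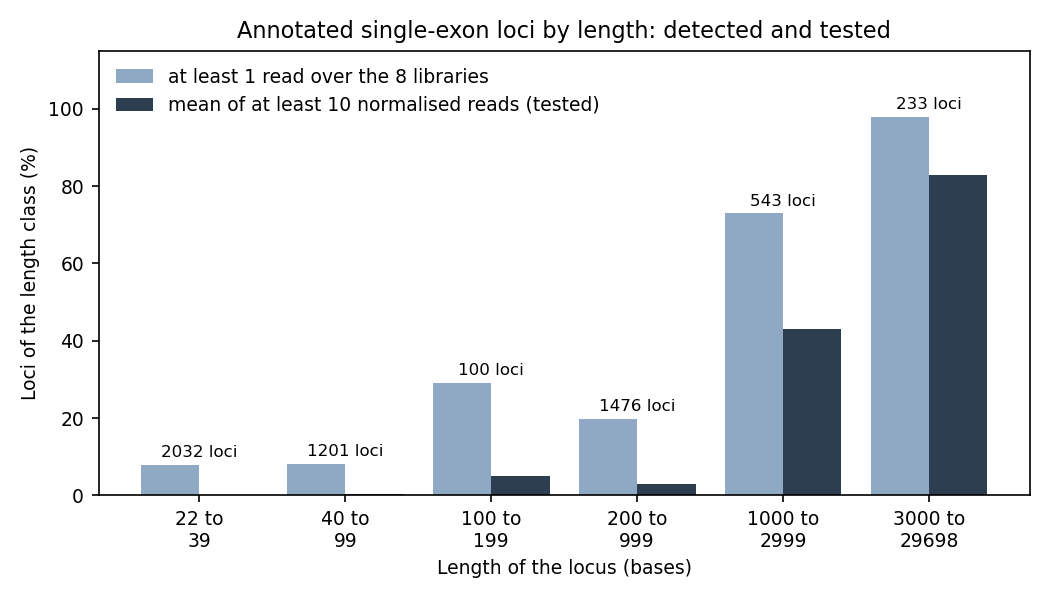
Share of the 5585 annotated single-exon loci with at least 1 read over the 8 libraries (light bars) and with a mean of at least 10 normalised reads (dark bars), in percent, by length of the locus in bases, with the number of loci above each class. Tested loci make up 82.8% of those of at least 3000 bases and 0.0492% of those under 40 bases.

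Olfactory receptors show the same gap among named genes. Symbols starting Olfr, the receptors of the nose that bind odorants, were given to 955 members, the most of any gene family, and 5 of these were tested. Their means over the 8 libraries ran from 10.5 to 173 normalised reads and their log2 differences between MI and Sham from -0.26 to 0.68. None was called by limma, edgeR or DESeq2, and none had an unadjusted p under 0.05. Of 112 vomeronasal receptor genes 1 was tested, of 34 bitter taste receptors 1, and of 14 trace amine receptors and 40 keratin-associated proteins 0.

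The libraries held 165 to 190.2 M reads in MI and 108 to 161 M reads in Sham. Replicate 3 of MI stood apart in markers of other tissues: the summed level of the adipocyte markers Adipoq and Plin1 was 176, 281, 2737 and 45.4 normalised reads in MI libraries 1 to 4, against 13.1, 6.83, 11.4 and 20.5 in Sham libraries, and Myh4, a myosin of fast skeletal muscle, reached 2716 normalised reads in MI replicate 3 and was 0 in every Sham library. Of 3 skeletal muscle markers Ckm, which heart muscle also expresses, fell (-0.68, adjusted p = 0.00220), and Myh1 and Myh4 were not called. Heart muscle was plain in each library, with Ttn (titin) between 552954 and 845831 normalised reads in MI and between 701734 and 1105123 in Sham (-0.42, adjusted p = 0.111), while Ryr2, the calcium release channel, fell (-0.67, adjusted p = 0.0197). The fibroblast markers Dcn and Pdgfra and the macrophage markers Csf1r and Adgre1 all rose in MI, beside the stromal genes described below, and the part of cell composition in any result was not tested.

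Between MI and Sham 82 single-exon loci rose and 59 fell among the 478 tested (limma with intensity trend on log2(value + 1), Benjamini-Hochberg adjusted p under 0.05 over all tested loci). On the reads recovered from the deposited values DESeq2 called 156 and edgeR 143. The limma calls make up 29.5%, where 40.9% of all 19186 tested loci were called, and 45.2% of those annotated with more than 1 exon. By direction 17.2% of the members rose and 12.3% fell, against 20.8% and 20.1% of all tested loci. Changes of at least 2-fold went mostly upward, with 41 rises (8.58%) and 8 falls (1.67%), against 9.04% and 3.77% of all tested loci. The median log2 difference was 0.01 among members and -0.02 over all tested loci. The values of MI and Sham did not overlap in 140 members (29.3%), against 39.6% of all tested loci. Without MI replicate 3 the counts were 69 and 47.

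Tested members had lower levels than tested spliced genes. The median of the means over the 8 libraries was 189 normalised reads for tested members and 1859 for annotated loci of more than 1 exon. Among loci with a mean of 10 to 50 normalised reads 20.4% of 137 members were called, against 32.4% of 1609 loci of more than 1 exon. The shares were 29.8% of 168 members against 51.4% of 2762 loci between 50 and 500 normalised reads, and 36.4% of 173 members against 45.5% of 10421 loci above that. These are counts side by side in wide classes, without a test, and levels were not matched within a class. The split of calls depends on scaling: with libraries scaled to their total 169 members were higher and 19 lower, and with the total outside chrM 131 and 27, and these scalings moved the median log2 difference of all loci by 0.31 and 0.19. Directions are given relative to the deposited scaling.

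**Figure D2:**
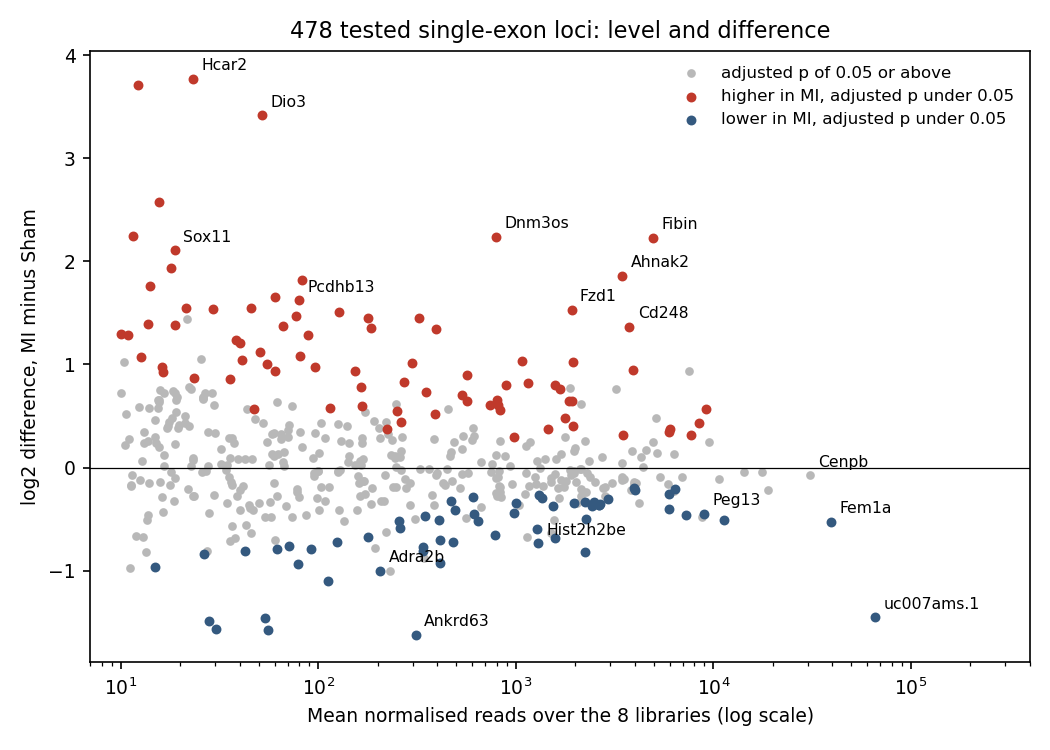
Mean normalised reads over the 8 libraries (horizontal, log scale) against the log2 difference MI minus Sham (vertical) for the 478 tested single-exon loci; red points rose, blue points fell and grey points were not called. Differences beyond 2-fold lie mostly above 0, with 41 rises against 8 falls.

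The locus of most reads is uc007ams.1 (chr1:24620810-24621651, minus strand, 842 bases), which overlaps no other locus of the assembly. The MI libraries held 26053, 26185, 36706 and 50313 normalised reads and the Sham libraries 146141, 103514, 85774 and 54011. It fell in MI (log2 difference -1.45 ± 0.29 SE, adjusted p = 0.00260), and the MI libraries lay below the Sham libraries without overlap, with the highest MI value close under the lowest Sham value. A chrM locus of the same length, uc009vfa.1, had 32599, 54869, 58975 and 45634 normalised reads in MI, against 70629, 94708, 128416 and 35728 in Sham, so the groups overlapped there (log2 difference -0.67 ± 0.34, adjusted p = 0.136). The chromosome 1 locus held 0.477 to 1.10 times the reads of the chrM locus in MI libraries and 0.668 to 2.07 times in Sham libraries. Of the 8 chrM loci 6 fell, where 20.1% of all tested loci fell. Because the stretch shown above is the same letter for letter in both genomes, reads of the nuclear locus and of the mitochondrial gene cannot be told apart by sequence, and the values of uc007ams.1 are uncertain as a measure of RNA from chromosome 1.

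That locus decides how the share of reads in single-exon loci compares between the groups. All members together took 0.609%, 0.562%, 0.606% and 0.614% of the reads outside chrM in MI libraries, against 0.632%, 0.580%, 0.575% and 0.537% in Sham libraries. These overlap, and the difference of 0.0165 percentage points was not larger than the spread (2-sided exact permutation p = 0.486). Without uc007ams.1 the shares were 0.581%, 0.537%, 0.570% and 0.567% in MI and 0.505%, 0.490%, 0.506% and 0.492% in Sham. Each MI library then lay above each Sham library, by 0.0659 percentage points on average (2-sided exact permutation p = 0.0286, the lowest possible with 4 libraries against 4, and 0.0571 after Benjamini-Hochberg adjustment over the 8 versions first computed). Leaving out single libraries gave differences of 0.0602 to 0.0749, with an exact permutation p of 0.0571 each, the lowest possible with 3 against 4. Over members that lie clear of every other locus, among them uc007ams.1, the difference was -0.00283 percentage points (exact permutation p = 0.914). Without uc007ams.1 these clear members took 0.291%, 0.271%, 0.294% and 0.288% of the reads in MI libraries and 0.235%, 0.239%, 0.251% and 0.233% in Sham libraries. This version was added after the others were seen, and its difference was 0.0466 percentage points (exact permutation p = 0.0286).

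**Figure D3:**
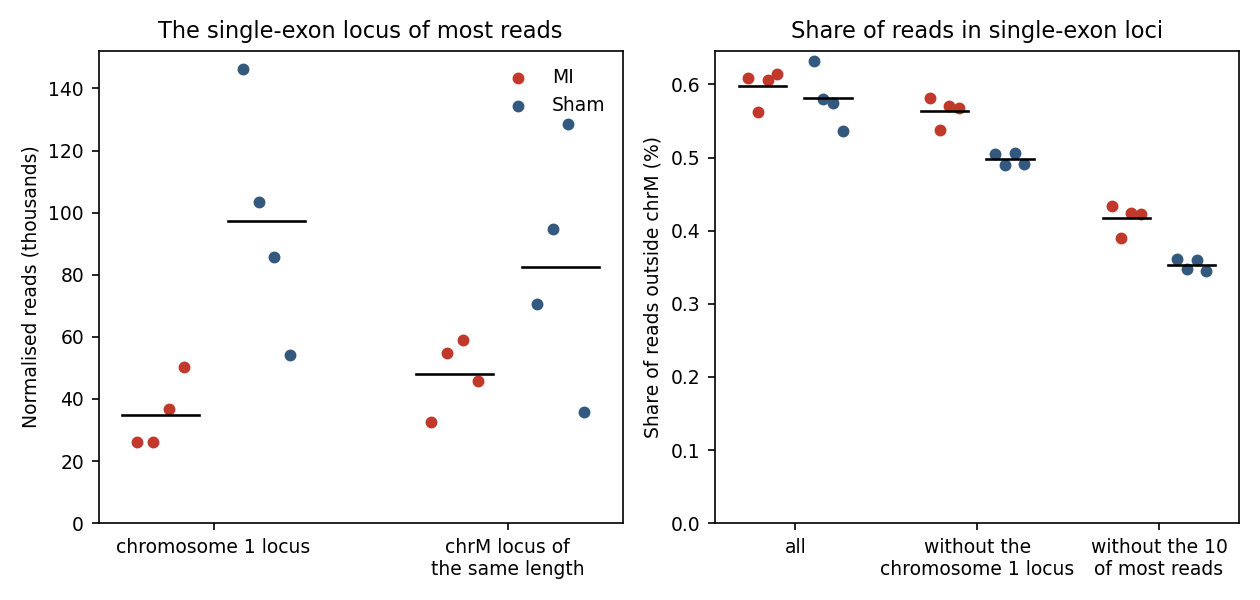
Left: normalised reads, divided by 1000, of the chromosome 1 locus uc007ams.1 and of the chrM locus of the same length in each library. Right: share of the reads outside chrM, in percent, that lies in all single-exon loci, in those without uc007ams.1 and in those without the 10 loci of most reads. Points are libraries, MI left of Sham, and lines are group means; the shares of MI and Sham overlap with uc007ams.1 and part without it.

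Of the 10 loci of highest mean 4 were called, of which uc007ams.1 is 1, a share close to the 40.9% called among all tested loci. Fem1a, a substrate receptor of ubiquitin ligases (chr17:56395107-56408968), averaged 32249 ± 3605 normalised reads in MI and 46308 ± 3189.7 in Sham and fell (log2 difference -0.53 ± 0.09, adjusted p = 0.00107). Its locus of 13862 bases lies opposite an exon of another locus. Strandedness is not given in the sources used here. Locus uc009nlz.1 on an exon of Pdpr, which encodes a regulatory subunit of pyruvate dehydrogenase phosphatase, fell as well (-0.51 ± 0.07, adjusted p = 1.86e-04), and it too lies opposite another exon. This locus shares only 167 of its 2859 bases with that Pdpr exon, so its value is not that of the exon alone. Itpripl2 rose, with 10939 ± 1121 normalised reads in MI and 7366 ± 796 in Sham (0.57 ± 0.10, adjusted p = 0.00116). The remaining 6 were not called and had log2 differences of -0.08 ± 0.08 for Cenpb, the protein that binds centromeric repeats, -0.05 ± 0.10 for the RNA-binding protein Pcbp1, -0.04 ± 0.07 for the linker histone H1f0, -0.11 ± 0.07 for the ubiquitin ligase adaptor Klhl9, 0.25 ± 0.19 for the AP-1 factor Jund and -0.22 ± 0.12 for the unnamed uc008ewj.1 (chr18:49550929-49557487). With libraries scaled to their total, Cenpb, Pcbp1, H1f0, Klhl9 and Jund (0.56) were called higher and uc008ewj.1 changed sign. Jund was also called without Sham replicate 3 (0.44, adjusted p = 0.0422). Per 1000 bases of locus the order was uc007ams.1 with 78488, Cenpb with 11337, Pcbp1 with 10561, H1f0 with 6216, uc009nlz.1 with 3944, uc008ewj.1 with 2887, Fem1a with 2834, Klhl9 with 2539, Itpripl2 with 1333 and Jund with 1069 normalised reads.

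The largest rise among members with a mean of at least 50 was that of Dio3, the deiodinase that inactivates thyroid hormone (chr12:111517440-111519307, 1868 bases). Normalised reads in MI were 90.8, 103, 93.1 and 93.4, against 4.77, 11.4, 11.4 and 6.31 in Sham. The 4 MI libraries lay within a narrow band and all stood above the Sham libraries (log2 difference 3.42 ± 0.29, adjusted p = 1.83e-05). Dio3 reached the mean of 50 through MI alone, since its Sham mean was 8.46. The same holds for Ch25h, uc007mlf.1, Pcdhb13 and Pcdhb9, described below, with Sham means of 37.1, 28.3, 38.8 and 40.9. Dnm3os, a non-coding RNA transcribed from the opposite strand of Dnm3 and known as the precursor of microRNAs (chr1:164147754-164155681), followed. Levels were 1673, 1054, 1333 and 1203 normalised reads in MI and 273, 330.3, 233 and 266 in Sham. It rose with no overlap between groups (2.24 ± 0.15, adjusted p = 6.18e-06).

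Fibin, a secreted protein known from fin bud initiation in zebrafish (chr2:110198317-110203632), had the highest level of the 10 rises. Fibin stood at 8089.7, 4688, 9992 and 10272 normalised reads in MI, against 1551, 1731, 1843 and 1616 in Sham. MI replicate 2 was the lowest of its group and still stood far above Sham (2.23 ± 0.21, adjusted p = 3.13e-05). Ahnak2, a large scaffold protein at costameres of muscle, averaged 5452 ± 1649 normalised reads in MI and 1465 ± 239.6 in Sham (1.86 ± 0.19, adjusted p = 4.96e-05), and its locus of 3447 bases matches the gene at 1 end. Fzd1, a receptor for Wnt ligands (chr5:4753839-4757971), was higher throughout MI. It had 3049, 2512, 2541 and 3305 normalised reads in MI libraries, against 1025, 955, 949 and 985 in Sham libraries. The groups did not overlap (1.53 ± 0.10, adjusted p = 4.32e-06). Fjx1, a secreted homologue of four-jointed, a planar polarity protein of Drosophila, averaged 189 ± 53.7 normalised reads in MI and 63.9 ± 4.86 in Sham (1.51 ± 0.21, adjusted p = 2.86e-04).

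The other rises among the 10 were of lower loci. Ch25h, cholesterol 25-hydroxylase, which makes an antiviral oxysterol in macrophages (chr19:34548274-34549625), was higher in MI. The MI libraries held 143, 69.2, 137 and 164 normalised reads and the Sham libraries 63.3, 19.4, 37.5 and 28.4. The lowest MI library stood close above the highest Sham library (1.82 ± 0.37, adjusted p = 0.00292), and the locus lies opposite an exon of another locus. An unnamed locus on an exon of the GENCODE gene Gm29292, uc007mlf.1 (chr11:116388789-116394419), averaged 92.3 ± 31.2 normalised reads in MI and 28.3 ± 7.56 in Sham and also lies opposite another exon (1.65 ± 0.30, adjusted p = 0.00136). The protocadherins Pcdhb13 and Pcdhb9 complete the 10 and are described with their cluster.

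**Figure D4:**
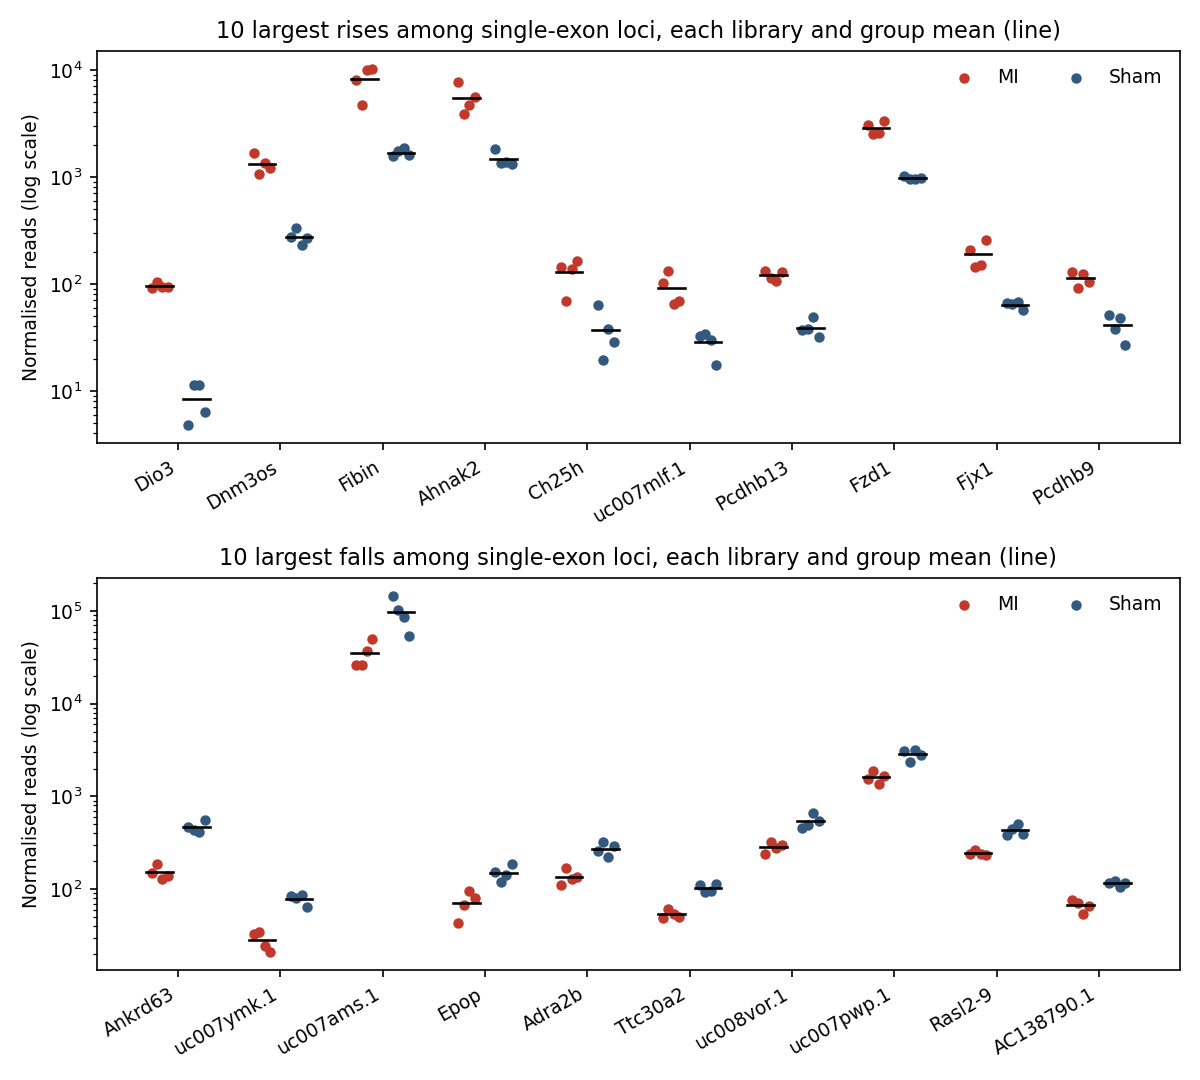
Normalised reads (log scale) of the 10 largest rises (upper panel) and 10 largest falls (lower panel) among members with a mean of at least 50 and groups that do not overlap. Points are libraries, MI in red left of Sham in blue, and lines are group means; Dio3 averaged 95.0 in MI against 8.46 in Sham, and Ankrd63 averaged 152 in MI against 468 in Sham.

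The falls, picked by the same rule, were smaller. Ankrd63, an ankyrin repeat protein (chr2:118524839-118529699), fell most. Normalised reads in MI were 151, 186, 130.1 and 140.5, against 466, 434, 412 and 563 in Sham. Its highest MI value was far under its lowest Sham value (-1.62 ± 0.15, adjusted p = 3.11e-05). Adra2b, the alpha-2B adrenergic receptor, which couples to Gi and answers catecholamines (chr2:127189022-127192957), had an MI mean of 0.499 times the Sham mean. Levels were 111, 170.5, 130.1 and 134 normalised reads in MI and 259, 326, 221 and 290.1 in Sham. No MI library reached the Sham range (-1.0005 ± 0.17, adjusted p = 0.00114). Epop, a partner of Polycomb repressive complex 2 and elongin, averaged 71.8 ± 21.6 normalised reads in MI and 151 ± 27.2 in Sham (-1.10 ± 0.24, adjusted p = 0.00477). Rasl2-9, a retrogene of the nuclear transport GTPase Ran, averaged 245 ± 15.3 normalised reads in MI and 431 ± 53.5 in Sham (-0.81 ± 0.12, adjusted p = 5.06e-04).

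Ttc30a2, a component of intraflagellar transport, averaged 53.7 ± 5.66 normalised reads in MI and 104 ± 9.73 in Sham (-0.94 ± 0.17, adjusted p = 0.00138); near-identical paralogs exist, so its reads may be shared with them. The processed transcript AC138790.1 averaged 66.9 ± 9.90 normalised reads in MI and 116 ± 7.82 in Sham (-0.79 ± 0.17, adjusted p = 0.00398), and with libraries scaled to their total its call was lost (-0.49, adjusted p = 0.0548). The 3 other falls were loci on exons of GENCODE genes. These were uc007ymk.1 on Tssk1 (-1.46 ± 0.23, adjusted p = 5.79e-04), which lies opposite another exon, uc008vor.1 on B330016D10Rik (-0.93 ± 0.14, adjusted p = 5.83e-04) and uc007pwp.1 on Aldh5a1, the gene of succinate semialdehyde dehydrogenase (-0.82 ± 0.12, adjusted p = 3.91e-04).

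The promoters of the largest rise, of the most abundant of the 10 rises and of the adrenergic receptor that fell are shown because they can be set side by side as sequence (RefSeq, GRCm38.p6, 250 bases before to 50 after the start). They are chr12:110278980-110279279 on the plus strand, chr2:110362944-110363243 on the minus strand and chr2:127362929-127363228 on the plus strand. Capitals mark matches on either strand to the TATA box (TATAAA), the CCAAT box (the letters of its name), the GC box (GGGCGG) or the cAMP response element (TGACGTCA).
Dio3: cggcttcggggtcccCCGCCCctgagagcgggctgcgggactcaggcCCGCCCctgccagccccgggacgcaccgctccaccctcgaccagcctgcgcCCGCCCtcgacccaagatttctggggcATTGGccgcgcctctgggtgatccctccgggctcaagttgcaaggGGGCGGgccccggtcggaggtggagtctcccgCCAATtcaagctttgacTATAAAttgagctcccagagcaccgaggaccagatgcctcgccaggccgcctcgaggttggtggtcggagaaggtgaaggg
Fibin: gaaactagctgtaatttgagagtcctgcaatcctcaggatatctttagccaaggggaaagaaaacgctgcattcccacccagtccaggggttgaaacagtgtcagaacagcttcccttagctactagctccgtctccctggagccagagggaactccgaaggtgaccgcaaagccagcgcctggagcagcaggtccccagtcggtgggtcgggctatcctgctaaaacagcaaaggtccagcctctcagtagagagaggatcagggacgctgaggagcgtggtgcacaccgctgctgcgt
Adra2b: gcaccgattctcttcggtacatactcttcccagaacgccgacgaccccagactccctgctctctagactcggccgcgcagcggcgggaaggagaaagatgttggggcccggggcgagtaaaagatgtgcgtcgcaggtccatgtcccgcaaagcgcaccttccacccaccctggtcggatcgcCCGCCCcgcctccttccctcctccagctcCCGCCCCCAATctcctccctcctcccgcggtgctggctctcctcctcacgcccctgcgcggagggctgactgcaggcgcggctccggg
Dio3 holds a TATA box starting 31 bases before the start, 2 CCAAT boxes and 4 GC boxes. Adra2b holds 1 CCAAT box, which adjoins a GC box, and a further GC box, and in the window of Fibin none of the 4 motifs occurs. Of the 306 named tested members 190 had a promoter in the table, with 193 entries. GC boxes stood in 54.4% of these entries, against 35.7% of all 32851 promoters, TATA boxes in 13.5% against 13.6%, CCAAT boxes in 32.6% against 37.4% and cAMP response elements in 3.63% against 1.79%. The entries of members come from loci with a mean of at least 10, whereas the whole set was not chosen by level. The 2 sets are thus not matched, and their difference was not tested. A match is a run of letters and says nothing of binding in these hearts.

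Transcription factors of the immediate early and stress list rose in 3 of 10 tested cases and fell in 0, where 20.8% of all tested loci rose and 20.1% fell (median log2 difference 0.36, against -0.02 over all loci). All list counts below stand against these shares, and nothing is read from them as particular to a list. Cebpa, a factor of myeloid, fat and liver cells (chr7:35904312-35906951), averaged 1143 ± 251 normalised reads in MI and 648 ± 82.5 in Sham (0.80 ± 0.15, adjusted p = 0.00197), with MI replicate 3, the library rich in adipocyte markers, highest at 1494; without it the difference was 0.66. Ier5l, an immediate early response gene, averaged 982 ± 223 normalised reads in MI and 614 ± 92.7 in Sham (0.66 ± 0.18, adjusted p = 0.0120). Jun, a subunit of the AP-1 factor (chr4:94715746-94718878), was higher by less. Jun stood at 8029, 10201, 11453 and 9319.5 normalised reads in MI, against 6705, 5893, 7992 and 8396 in Sham. The lowest MI library lay under the highest Sham library (0.43 ± 0.13, adjusted p = 0.0235). The call of Jun was lost without MI replicate 2 or 3 or Sham replicate 1 or 2, where the difference ran from 0.34 to 0.40.

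Of the developmental transcription factors 7 were tested, all forkhead or Sox genes, of which 4 rose and 0 fell, where 20.8% of all tested loci rose and 20.1% fell (median log2 difference 0.77). The other 10 of the 17 members with a locus did not reach the mean of 10 normalised reads. Sox11, a factor of embryonic mesenchyme and neurons (chr12:28020081-28027577), was near the floor in Sham. It had 41.1, 18.1, 32.1 and 33.2 normalised reads in MI libraries, against 7.16, 4.56, 4.55 and 9.46 in Sham libraries. It rose without overlap (2.11 ± 0.35, adjusted p = 9.06e-04). Foxs1, a forkhead factor of pericytes and smooth muscle (chr2:152757634-152758944), rose too. The MI libraries held 589, 340.1, 568 and 757 normalised reads and the Sham libraries 351, 174, 179.6 and 188. Sham replicate 1 stood apart at 351 and above MI replicate 2 (1.34 ± 0.27, adjusted p = 0.00296). Foxl1, a factor of mesenchymal cells under the gut epithelium, averaged 14.7 ± 5.37 normalised reads in MI and 5.38 ± 2.38 in Sham (1.30 ± 0.41, adjusted p = 0.0279), and its call was lost without Sham replicate 1 (1.17) or 4 (1.12); without MI replicate 1, 2 or 4 its mean was under 10. The fourth rise was that of Foxc1 (0.65 ± 0.18, adjusted p = 0.0150), a factor of mesoderm, named after its value was seen.

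Intronless G protein-coupled receptors went both ways, with 4 of 12 tested members higher and 3 lower (median log2 difference 0.09). Hcar2, the receptor for beta-hydroxybutyrate and niacin on fat cells and myeloid cells (chr5:124313586-124315505), was almost without reads in Sham. Normalised reads in MI were 41.1, 40.4, 54.4 and 38.4, against 4.77, 2.28, 0 and 4.73 in Sham. Its rise had the largest log2 difference of any tested member (3.77 ± 0.53, adjusted p = 3.25e-04), and without MI replicate 3 it was 3.66. The related lactate receptor Hcar1, named after its value was seen, had a log2 difference of 1.05 ± 0.35, adjusted p = 0.0336, which lost its call without MI replicate 3 (0.79, adjusted p = 0.0950). Both adipocyte markers given above also rose in MI, and their part in these receptor values was not tested. The 2 receptor genes are also alike in sequence, so reads may be shared.

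Bdkrb1, the bradykinin B1 receptor known to appear on injury (chr12:106842301-106843638), was low but higher in MI. Levels were 19.2, 32.1, 10.7 and 16.6 normalised reads in MI and 1.19, 2.28, 5.68 and 4.73 in Sham. The groups did not overlap (2.24 ± 0.46, adjusted p = 0.00322). Chrm4, the muscarinic M4 receptor, averaged 17.5 ± 5.08 normalised reads in MI and 7.77 ± 2.26 in Sham (1.08 ± 0.34, adjusted p = 0.0280), and the call was lost without MI replicate 1, 2 or 4 or Sham replicate 3, where it ran from 0.87 to 1.08, and with DESeq2 (1.17, adjusted p = 0.0549). Besides Adra2b the falls were Sstr4, a somatostatin receptor (-0.72 ± 0.19, adjusted p = 0.0118), and Gpr27, an orphan receptor (-0.68 ± 0.08, adjusted p = 1.64e-04), both named after their values were seen and both lying opposite an exon of another locus. Aplnr, the apelin receptor of endothelium, varied too widely to be called. Aplnr stood at 12861, 4258, 7036 and 13349 normalised reads in MI, against 12288, 3861, 1806 and 4464 in Sham. MI replicates 1 and 4 and Sham replicate 1 were high (0.94 ± 0.52, adjusted p = 0.178).

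Among frizzled receptors Fzd1 was the 1 call of 3 tested, with 0.25 ± 0.18, adjusted p = 0.308 for Fzd8 and 0.08 ± 0.20, adjusted p = 0.775 for Fzd9. In the list of claudins, connexins and endothelial surface proteins 1 of 5 rose. This was Cd248, endosialin, a surface protein of pericytes and activated fibroblasts (chr19:5068078-5071535). It had 5930.2, 3812, 4709 and 7066 normalised reads in MI libraries, against 3360.2, 1641, 1877 and 1638 in Sham libraries. Sham replicate 1 stood apart from the other Sham libraries and stayed under the lowest MI library (1.37 ± 0.24, adjusted p = 0.00135), and the locus lies opposite an exon of another locus. The endothelial members Cldn5 (0.62 ± 0.24, adjusted p = 0.0647) and Clec14a (0.16 ± 0.19, adjusted p = 0.539) were not called, nor were the endothelial markers Pecam1, Cdh5 and Kdr. Of the potassium channel list 2 of 3 rose: Kcne1l, a channel beta subunit on chromosome X, which averaged 68.6 ± 21.7 normalised reads in MI and 21.98 ± 1.45 in Sham (1.55 ± 0.25, adjusted p = 7.58e-04), and Kctd12, an auxiliary subunit of GABA-B receptors, which averaged 6834 ± 632 normalised reads in MI and 5269 ± 482 in Sham (0.37 ± 0.09, adjusted p = 0.00728). Kcna5, the subunit of an atrial and ventricular potassium current, was not called (-0.34 ± 0.36, adjusted p = 0.470).

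Clustered beta protocadherins, adhesion proteins best known for giving neurons an individual surface, are neighbours in 1 cluster. They number 20 loci between 37424652 and 37676017 of chromosome 18 (mm9), of which 19 were tested, with means from 13.9 to 738 normalised reads. In MI 7 rose and none fell by limma, 9 were called by DESeq2 and 10 had an unadjusted p under 0.05 (median log2 difference 0.58, range -0.15 to 1.62). The MI mean was above the Sham mean in 18 of 19, which are neighbours of like sequence, so reads may be shared and the loci are not separate replicates. Pcdhb13 rose most. The MI libraries held 133, 113, 107 and 129 normalised reads and the Sham libraries 37.0, 37.6, 48.9 and 31.5. The groups lay far apart (1.62 ± 0.19, adjusted p = 1.16e-04). Pcdhb9 averaged 113 ± 17.2 normalised reads in MI and 40.9 ± 11.0 in Sham (1.47 ± 0.24, adjusted p = 7.24e-04) and Pcdhb3 79.9 ± 12.3 normalised reads in MI and 41.0 ± 3.91 in Sham (0.94 ± 0.19, adjusted p = 0.00305). The member of highest level, Pcdhb17, had a log2 difference of 0.61 ± 0.10, adjusted p = 6.63e-04, while Pcdhb8 (0.03 ± 0.23, adjusted p = 0.918) and Pcdhb19 (0.11 ± 0.14, adjusted p = 0.554) were near equal; these 3 were named after their values were seen.

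**Figure D5:**
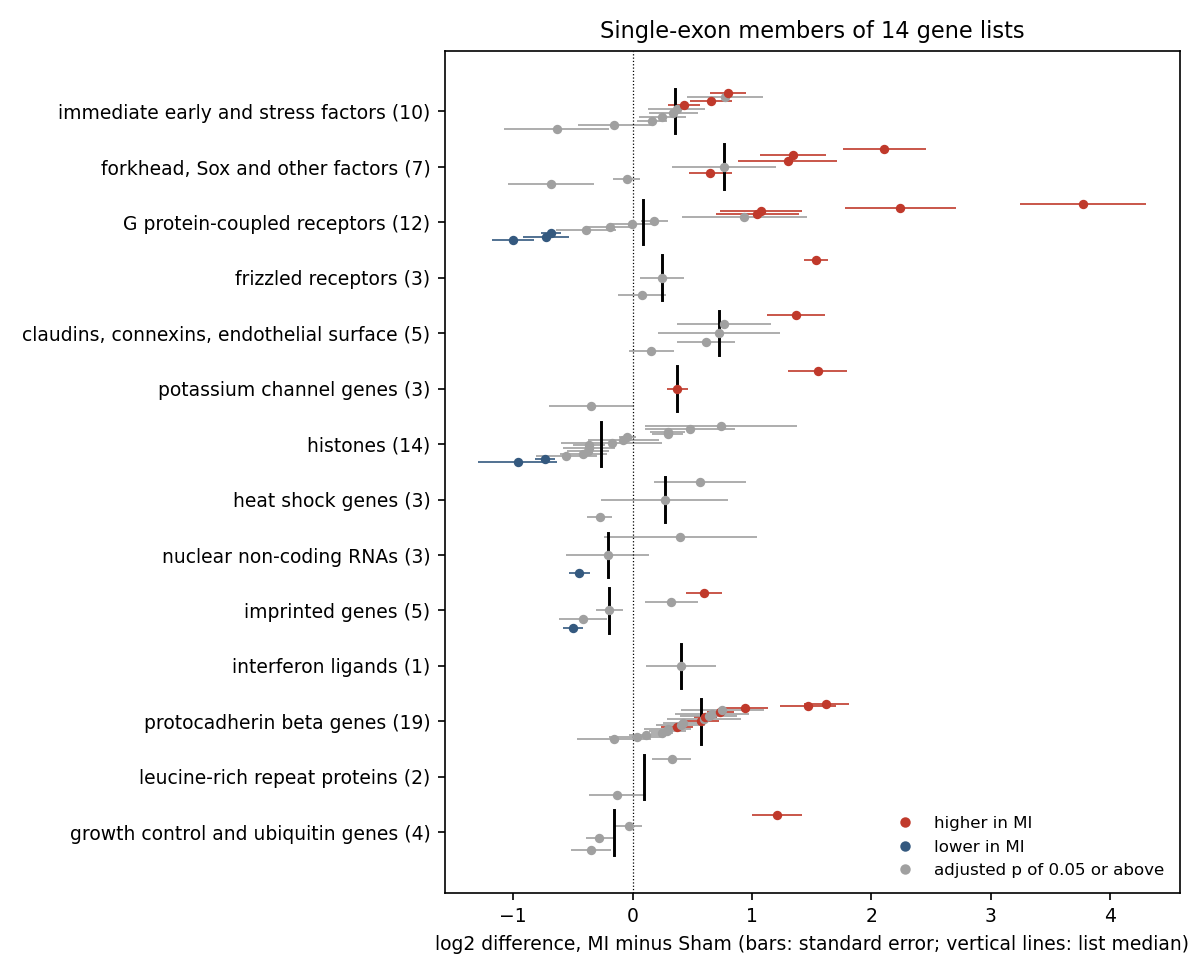
Log2 difference MI minus Sham, with standard error, of each tested single-exon member of 14 gene lists; the number of tested members follows each list name and vertical lines are list medians. Protocadherin beta genes lie mostly right of 0, with 7 of 19 called, and histones mostly left of 0, with 2 of 14 called.

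Histone genes fell in 2 of 14 tested cases and rose in 0 (median log2 difference -0.27), out of 38 with a locus. The falls are no larger a share than the 20.1% among all tested loci. Hist2h2be, a histone H2B gene also known to give polyadenylated mRNA (chr3:96025044-96027661, 2618 bases), fell. Normalised reads in MI were 956, 1012, 922 and 981, against 1573, 1470.2, 1654 and 1747 in Sham. No library of MI came near the Sham range (-0.73 ± 0.08, adjusted p = 8.72e-05). The pseudogene Hist3h2bb-ps averaged 9.92 ± 3.82 normalised reads in MI and 19.97 ± 5.54 in Sham (-0.96 ± 0.33, adjusted p = 0.0389). That call was lost in 6 of 8 fits that leave out a library, with differences from -0.998 to -0.80, and held without MI replicate 3 (-1.18) or Sham replicate 4 (-1.10). It was also lost with DESeq2 (adjusted p = 0.0658), with both total scalings (-0.68 and -0.78) and without a filter (adjusted p = 0.0644). The list also holds H1f0 and H2afj (0.29 ± 0.14, adjusted p = 0.130), variants made outside S phase, which were not called.

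The stem-loop, searched on the transcript strand in its forms with either of the stems printed above and any base at the end of the loop, stands in the transcripts of 16 of the 38 histone members and in 0.0339% of all 141767 GENCODE transcripts. Of 7 members whose locus runs more than 100 bases past the stem-loop 5 were tested. Of 9 whose locus ends within 100 bases of it 1 was, and the difference was not tested. In 8 of the 14 tested histone members no such stem-loop was found in the transcript searched. That transcript can be shorter than the locus, as for Hist1h4k with 312 bases against 10486. A stem-loop past its end would be missed, so these genes are not shown to lack it. The 7 were also longer, with a median of 1755 bases against 468. Of the stem-loops printed above, those of Hist1h4h (-0.36 ± 0.13, adjusted p = 0.0508), Hist1h4i (-0.41 ± 0.20, adjusted p = 0.117) and Hist1h2ac (-0.37 ± 0.17, adjusted p = 0.109) belong to genes whose loci were not called. These values are of whole loci. The Hist1h4h locus has 7248 bases, against 470 in the GENCODE transcript, and runs 6824 bases past the stem-loop. The loci of Hist1h2ac and Hist1h4i run 2010 and 150 bases past theirs. Histone genes have near-identical copies, so counts of single genes are uncertain.

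The list of imprinted genes divided, with 1 of 5 tested members higher and 1 lower (median log2 difference -0.19). It does not hold every imprinted gene among the members, and Peg13, described below, is counted in another list. Peg12, a paternally expressed gene of the Prader-Willi region (chr7:69603726-69609396), averaged 199.5 ± 23.7 normalised reads in MI and 132 ± 15.3 in Sham and rose (0.60 ± 0.15, adjusted p = 0.00923). Zrsr1, a paternally expressed retrogene of a splicing factor (chr11:22872029-22874908), averaged 1873 ± 124 normalised reads in MI and 2649 ± 223 in Sham and fell (-0.50 ± 0.09, adjusted p = 0.00108), in a locus opposite another exon. Of 3 nuclear non-coding RNAs 1 fell, Peg13, an imprinted RNA from an intron of Trappc9 (chr15:72636030-72640754). Levels were 6708, 8329.8, 8029 and 7403 normalised reads in MI and 9415, 11378, 10155 and 10504 in Sham. The groups did not overlap (-0.45 ± 0.09, adjusted p = 0.00218), though with libraries scaled to their total the difference was -0.14 and not called. Rmrp (0.40 ± 0.64, adjusted p = 0.653) and Terc (-0.21 ± 0.35, adjusted p = 0.667), the RNAs of RNase MRP and telomerase, were not called, and the Terc locus of 2785 bases matches its gene at 1 end only.

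In the growth control and ubiquitin list 1 of 4 tested members rose. Nog, the secreted BMP antagonist noggin (chr11:89161960-89163914), was higher in each MI library. Nog stood at 55.7, 50.2, 69.2 and 49.7 normalised reads in MI, against 22.7, 20.5, 26.1 and 25.2 in Sham. The groups did not overlap (1.21 ± 0.21, adjusted p = 0.00123). Of 3 heat shock genes none was called by limma or edgeR, 1 was by DESeq2 and 1 had an unadjusted p under 0.05. Hspb3, a small heat shock protein of muscle, averaged 720.1 ± 38.0 normalised reads in MI and 877 ± 119 in Sham (-0.28 ± 0.11, adjusted p = 0.0636); the near-identical Hspa1a (0.27 ± 0.53, adjusted p = 0.720) and Hspa1b (0.56 ± 0.39, adjusted p = 0.272), which encode inducible Hsp70, varied widely within both groups. Of 16 interferon genes with a locus 11 had no read and 1 was tested, Ifnz (0.41 ± 0.29, adjusted p = 0.293). Both tested leucine-rich repeat genes, Lrrc4 (0.33 ± 0.16, adjusted p = 0.137) and Amigo3 (-0.13 ± 0.24, adjusted p = 0.704), were not called by limma, edgeR or DESeq2, and neither they nor Ifnz had an unadjusted p under 0.05. With libraries scaled to their total Lrrc4 was called higher by limma (0.63, adjusted p = 0.0158), as with the total outside chrM (0.52, adjusted p = 0.0371).

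The 23-base locus in the Mir23b hairpin, uc007qxn.1 (chr13:63401837-63401859), singled out for its size after its value was seen, rose. It had 85.5, 54.4, 96.4 and 44.5 normalised reads in MI libraries, against 33.4, 36.4, 20.5 and 33.1 in Sham libraries. The groups did not overlap (1.12 ± 0.30, adjusted p = 0.0117). Reads were 100 bases long, longer than the locus, so the value is no measure of the mature microRNA. Of 12 members that lie in microRNA hairpins 6 equal a mature microRNA of RefSeq at both ends, 5 had no read, and the 11 other than uc007qxn.1 had means of at most 8.67 normalised reads.

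Some tested members without a name could be set beside the gene on whose exon they lie. Of the 88 tested loci on a GENCODE exon, 41 lie on a spliced gene with a tested locus of its own. No least overlap with the exon was required. Locus uc007ksq.1 shares 1 of its 3041 bases with an exon of Rps6kb1, and uc008kcd.1 shares 17 of 3489 with an exon of Sp3. Others lie on an exon with all their bases, such as uc007smc.1 with 1351. Across these 41 pairs the log2 differences of member and gene had a Pearson correlation of 0.88 and a Spearman correlation of 0.76, or Pearson 0.73 without the pair of largest change. This is across loci, which are not independent replicates, and member and gene may share reads. The member was called in 11 pairs, the gene in 14 and both in 6, each time in the same direction. Among all tested loci 40.9% were called. The largest pair was uc007smc.1 on Kcnma1, the BK potassium channel, with 2.58 ± 0.33 (adjusted p = 1.81e-04) for the member and 2.91 ± 0.25 (adjusted p = 1.83e-05) for the gene. Members and genes also differed, as for uc008tfo.1 on Zfp618, with 1.08 ± 0.23 (adjusted p = 0.00369) against 0.11 ± 0.46 (adjusted p = 0.872), and uc007clk.1 on R3hdm1, with 0.78 ± 0.31 (adjusted p = 0.0667) against -0.27 ± 0.07 (adjusted p = 0.00863); these pairs were picked after their values were seen, and the difference within a pair was not tested.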

How the data were processed

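Long RNA was measured in 8 libraries, 4 of MI and 4 of Sham. Per the submitters' processing notes, TopHat2 2.0.5, Cufflinks 2.0.2, HTSeq 0.5.4p2, DESeq and mm9 were used. The authors deposited normalised values per locus (a signal unit): within a library every value is a whole multiple of 1 step, within 1e-06 for 100% of values, so they are read counts divided by 1 size factor. A read was worth 0.663 to 0.873 in MI and 1.14 to 1.58 in Sham, and 3 reads 1.99 to 4.73. Their deposited transcript assembly gave exons and class codes. In this text a normalised read is a deposited value, and errors beside log2 differences are standard errors, beside means SDs (n = 4 each).

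From these values log2(value + 1) was tested with limma 3.58.1 (R 4.3.3), trend on, for 19186 loci with a mean of at least 10, with Benjamini-Hochberg adjustment over all; log2 differences are MI minus Sham and understate low loci. Reads recovered from the values were tested with edgeR 4.0.16 and DESeq2 1.42.0. The mean of at least 10 is over both groups, so a locus can reach it through 1 group alone. Examples are Dio3, Hcar2, Bdkrb1, Chrm4, Sox11, Foxl1, uc007smc.1 and uc008hih.1 through MI and Hist3h2bb-ps through Sham. That such a locus was tested is no separate sign of a change. On simulated data of 19186 loci the limma fit recovered 41.8% of 67 loci changed by 1.5 times. It recovered 61.2% of 67 changed by 2 times and 87.9% of 66 changed by 4 times. Far fewer loci changed there than were called here, so these shares need not hold for the real data. Named were the 10 loci of highest mean, the 10 largest rises and falls with a mean of at least 50, groups without overlap and a call, and of each of 14 lists the 3 called members of largest change or, with none called, the member of smallest p; further list members and unnamed loci given with values were named after these were seen. The members and lists were chosen with earlier results of these data known. Shares used 2-sided exact permutation tests. Alternatives were other scalings, pseudocounts of 0.5 and 5, filters, the replicate block and leaving out each library. Nothing says that the libraries came from separate cages or days, so p-values measure the spread between these samples. Names came from GENCODE M21, with flanking introns of at least 100 bases, and promoters and microRNAs from RefSeq (GRCm38.p6); locus coordinates are mm9.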

Additional observations from a re-analysis of the deposited data

Results flagged for a closer look

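In 7 of 112 groups of 4 libraries 1 library lay apart from the others by more than Dixon's 95% critical value for the gap over the range, where chance gives about 1 in 20. Sham replicate 1 was high in 3 genes of stroma and muscle scaffold, with 1823 normalised reads of Ahnak2, 351 of Foxs1 and 3360.2 of Cd248. MI replicate 3 was high for Hcar2 with 54.4 and for Hist3h2bb-ps with 15.6 normalised reads. MI replicate 2 was high for Rasl2-9 with 268 normalised reads, and its share of reads in single-exon loci was low at 0.562%.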

How the results depend on the processing

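Among the named loci, 914 values under alternatives kept direction and side of the threshold, 23 lost a call, 7 gained one and 12 changed sign; the cause was not tested. The counts of 82 rises and 59 falls became 169 and 19 with library total scaling, 131 and 27 with the total outside chrM, and 46 and 29 over members clear of other loci. Leaving out 1 library gave 66 to 86 rises and 47 to 62 falls. The median log2 difference of members, 0.01, was 0.031 with TMM, -0.032 with upper-quartile scaling, 0.32 with the library total, 0.20 with the total outside chrM, -0.045 at a mean of at least 50 and 0.15 without a filter, and -0.010 to 0.024 without single libraries. The difference in share of 0.0165 percentage points was 0.0659 without the locus of most reads, 0.0642 without the 10 of most reads and -0.00283 over members clear of other loci, or 0.0466 when these also leave out the locus of most reads (added after the data were seen), and 0.00179 to 0.0334 without single libraries. Signs turned with library total scaling for Cenpb (0.23), uc008ewj.1 (0.085), Pcbp1 (0.26), H1f0 (0.26), Klhl9 (0.20) and Hspb3 (0.031), and with the total outside chrM for Cenpb (0.12), Pcbp1 (0.15), H1f0 (0.15) and Klhl9 (0.084). Without single libraries Pcbp1 ran from -0.11 to 0.022 and was above 0 without MI replicate 1 or Sham replicate 3. Same-numbered libraries did not deviate together throughout (correlations 0.146, 0.272, 0.160 and -0.000918), so their numbers give no pairing, though 5 of 8 correlated best with their own number, a hint from the data; with a replicate block 81 members rose and 72 fell, no named call changed, and the difference in share was 0.0165 (exact permutation p = 0.625). Depth limits the lowest loci: 723 members had reads but a mean under 10.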

Other observations

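The 4 following unnamed loci were called by limma and were picked after their values were seen. The largest change was at uc008hih.1 (chr19:37329503-37332760). The MI libraries held 19.9, 31.3, 34.6 and 7.85 normalised reads and the Sham libraries 1.19, 0, 2.27 and 0. It rose in MI (3.71 ± 0.57, limma adjusted p = 5.79e-04), with at most 2 reads in any Sham library. Locus uc008lft.1 (chr2:93031208-93033565) averaged 471 ± 100.4 normalised reads in MI and 175 ± 58.0 in Sham (1.45 ± 0.24, limma adjusted p = 9.32e-04), and uc009bfw.1 (chr6:30754784-30757552) 2588 ± 466 normalised reads in MI and 1283 ± 283 in Sham (1.02 ± 0.17, limma adjusted p = 8.97e-04). Locus uc009hik.1 (chr7:74391424-74395004) averaged 26.3 ± 15.8 normalised reads in MI and 84.7 ± 54.4 in Sham and fell (-1.57 ± 0.56, limma adjusted p = 0.0458), a call that was lost without MI replicate 1, 3 or 4 or Sham replicate 1, 2 or 4, with differences of -1.75 to -1.19. None of the 4 could be named or lay on an exon of a GENCODE gene.

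Named long non-coding genes were tested in 30 cases, of which 3 rose and 6 fell (median log2 difference -0.13), and named protein-coding genes in 257, of which 50 rose and 34 fell (0.06). Of 15 tested pseudogenes 1 rose and 1 fell. Among all tested loci 20.8% rose and 20.1% fell, so the falls of non-coding genes were close to that share and their rises below it, without a test.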
